A study of Mus musculus with 6 samples.

Results

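The genes described here encode enzymes of the tricarboxylic acid (TCA) cycle, enzymes that feed or drain it, and enzymes of fatty acid oxidation. They were taken by symbol from a fixed list, and all 38 were found among the 38207 genes and loci of the table. The samples were microglia of wild-type (WT) mouse brain, read as full-length cDNA on nanopores. Of the 6 libraries, 3 came from mice after sham surgery and 3 from mice after tMCAO, which usually stands for transient occlusion of the middle cerebral artery, a model of ischemic stroke. Each library was a pool from 30 mice, so an SD below is a spread between pools and not between animals. The labels name microglia as the cell type, while their protocol speaks of RNA from tissue. Strain, sex, age, the interval after surgery and the means of isolating the cells were not stated.

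The TCA cycle runs in the mitochondrial matrix, where acetyl-CoA is joined to oxaloacetate and oxidised in steps that yield NADH, FADH2 and a nucleotide triphosphate. Fatty acids reach the matrix as carnitine esters and are shortened there in a repeating spiral of dehydrogenation, hydration, a further dehydrogenation and thiolysis, which releases acetyl-CoA for the cycle. Cycle intermediates also leave the matrix or are refilled through the malate-aspartate shuttle, glutamate and pyruvate. Activated macrophages and microglia are known for shifting between glycolysis and these oxidative routes.

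Total counts ranged from 1855495 to 2614512 per library. Levels are given in CPM, which corrects a count for the total of its library, and 1 count equals 0.382 to 0.539 CPM here. The share of a gene's transcripts that ends up as reads may differ between genes and was not measured. Levels are therefore compared between libraries and not between genes. Differences are log2 fold changes of tMCAO against sham with their standard error (SE). Overlap between the groups was judged in CPM. The fold changes used TMM scaling as well, with factors from 0.92 (sham 2) to 1.07 (tMCAO 1), so a small gap in CPM can close under it. A gene was called changed at an adjusted p under 0.05 in edgeR's quasi-likelihood test over 13127 genes. The 8 microglial markers had counts in every library, with summed levels of 21704 to 24305 CPM, and 2 of them were called lower after tMCAO. In earlier results on these data, libraries sham 1 and tMCAO 3 stood apart from the others of their groups, so counts are also given without them.

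A few single enzymes rose or fell, while the summed level of neither pathway separated the groups. Of the 38 genes, 36 had enough counts to be tested, and 4 of them were higher after tMCAO (Ogdh, Cpt1a, Got1 and Idh1) and 3 lower (Mdh1, Acadm and Glud1). The called share was 19.4% of the tested members, against 18.1% of all tested genes (9.17% higher and 8.96% lower), so it was near the background. The median log2 fold change was -0.00095 over the 36 members and 0.00027 over all tested genes. In the sham libraries 1 to 3, the members' summed level was 2131, 2470 and 1924 CPM, and in the tMCAO libraries 1 to 3 it was 2177, 2158 and 2442 CPM, so the groups overlapped. The mean sum of the TCA cycle and linked enzymes was 1208 ± 161.7 CPM in sham and 1215 ± 105.5 CPM in tMCAO, and that of fatty acid oxidation 966.6 ± 115.5 and 1044 ± 62.89 CPM (SD, n = 3 each). The libraries of the groups did not overlap in CPM for 13 members, 9 of them higher and 4 lower after tMCAO, where 37.8% of all tested genes did not overlap (23.3% higher and 14.6% lower). In bulk pools such as these, fewer cells of a type and less RNA per cell cannot be told apart.

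Without tMCAO 3, 5 members were higher and 4 lower, where 17.2% of all tested genes were called (9.45% higher and 7.75% lower). Without both tMCAO 3 and sham 1 there were 3 and 2, where 11.4% of all tested genes were called (6.7% higher and 4.74% lower), and Ogdh, Cpt1a, Mdh1 and Acadm were among the calls each time. DESeq2 called 2 members higher (Ogdh and Cpt1a) and 1 lower (Mdh1), and 12.9% of all tested genes (6.64% higher and 6.28% lower). By limma voom 3 members were higher (Ogdh, Cpt1a and Got1) and 2 lower (Mdh1 and Acadm), as were 14.8% of all tested genes in either direction (7.82% higher and 7% lower). All 3 lower calls were lost when sham 1, sham 2, tMCAO 1 or tMCAO 2 was left out, and without sham 3 Ogdh was the 1 member called higher. Calls over all tested genes also fell, to 1254 of 13471 without sham 1, 1988 of 13864 without sham 2 and 1558 of 13516 without sham 3. They were 2161 of 14937 without tMCAO 1 and 1643 of 14737 without tMCAO 2, against 2380 of 13127 with all libraries. Among members, Ogdh alone was called under all 15 alternatives.

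**Figure D1:**
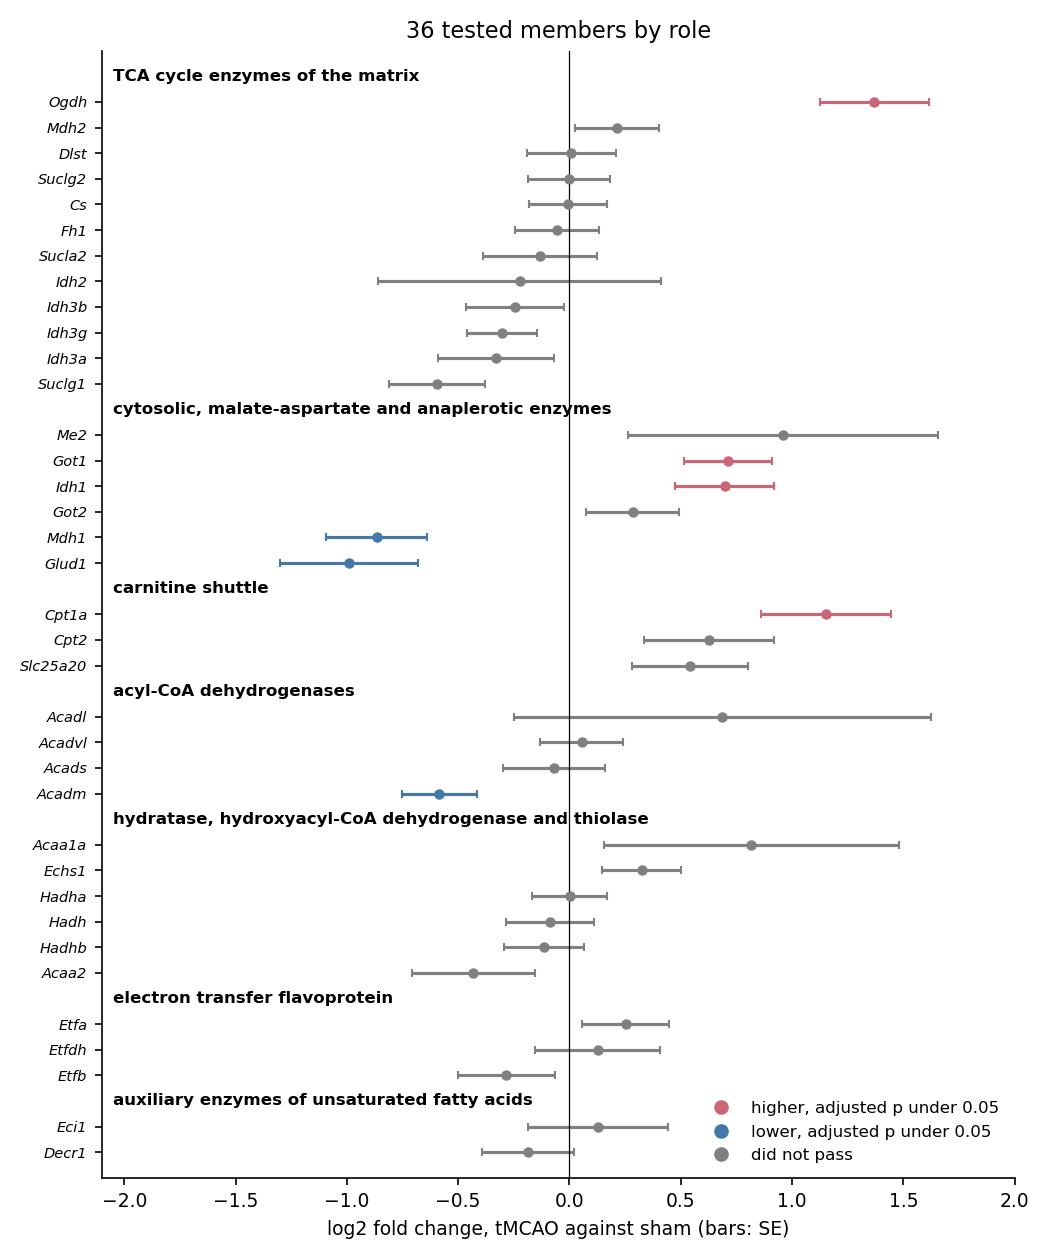
Log2 fold change of tMCAO against sham (x axis, bars are SE) for the 36 tested members, grouped by role (y axis). Most points lie within 0.5 of 0 (23 of 36), and Ogdh lies farthest to the right at 1.37.

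Among 12 TCA cycle enzymes of the matrix, 1 rose (Ogdh), none was called lower by edgeR's quasi-likelihood test and 11 did not pass. The 1 call is 8.33% of the 12, beside 18.1% of all tested genes. DESeq2 and limma voom each called 1 of the 12, and 12.9% and 14.8% of all tested genes. An unadjusted p under 0.05 was reached by 2 of the 12. As an adjusted p is never below the unadjusted p, at least 18.1% of all tested genes reached an unadjusted p under 0.05. Ogdh (ENSMUSG00000020456) encodes the E1 subunit of the 2-oxoglutarate dehydrogenase complex, which turns 2-oxoglutarate into succinyl-CoA. Its level was 31.2, 24.2 and 20.3 CPM in sham libraries 1 to 3 and 52.2, 75.5 and 83.6 CPM in tMCAO libraries 1 to 3. Every tMCAO library was above every sham library. The mean went from 25.2 ± 5.54 to 70.4 ± 16.3 CPM (SD, n = 3 each), a log2 fold change of 1.37 ± 0.24 (SE), or 2.58-fold, with an adjusted p of 0.00219 in edgeR's quasi-likelihood test. Over the 15 alternatives the log2 fold change of Ogdh ran from 1.20 to 1.58 and the adjusted p from 5.81e-09 to 0.0154.

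The E2 subunit of the same complex, encoded by Dlst, had 84 counts in each tMCAO library and 88 to 113 in the sham libraries, and did not pass (0.0073 ± 0.20). Dld, the E3 subunit that this complex shares with pyruvate dehydrogenase, did not pass either (-0.11, adjusted p = 0.774 in edgeR's test). Thus, of the 3 subunits, 1 passed the test.

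Citrate synthase (Cs), which opens the cycle, had 118 ± 21.0 CPM in sham and 128 ± 4.73 CPM in tMCAO (SD, n = 3 each), with a log2 fold change of -0.0058 ± 0.18. Fh1, the fumarase, was at -0.06 ± 0.19. The 3 subunits of NAD-linked isocitrate dehydrogenase all had values below 0, at -0.33 ± 0.26 for Idh3a, -0.24 ± 0.22 for Idh3b and -0.30 ± 0.16 for Idh3g, and none of them passed edgeR's test, DESeq2 or limma voom. For Idh3g the levels were 134, 117 and 120 CPM in sham 1 to 3 and 104, 108 and 113 CPM in tMCAO 1 to 3, which do not overlap, with an adjusted p of 0.205 in edgeR's test.

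Succinyl-CoA ligase, the step that yields a nucleotide triphosphate, joins the alpha subunit Suclg1 to either of the beta subunits Sucla2 and Suclg2. Suclg1 had 84.8, 103 and 66.9 CPM in sham 1 to 3 and 56.6, 55.0 and 71.4 CPM in tMCAO 1 to 3. The groups overlapped in sham 3 and tMCAO 3. Its log2 fold change of -0.60 ± 0.22 did not pass (adjusted p = 0.0732 in edgeR's test), and it passed without tMCAO 3 (-0.75, adjusted p = 0.0344), without sham 3 (-0.77, 0.0468) and with upper-quartile scaling (-0.66, 0.0484). Sucla2, the ADP-forming subunit, had 25.7, 46.0 and 27.2 CPM in sham 1 to 3 and 35.95, 31.3 and 31.4 CPM in tMCAO 1 to 3. Its single high library was sham 2, and the value of -0.13 ± 0.26 turned to 0.22 without it. Suclg2, the GDP-forming subunit, held 38.4, 46.0 and 49.7 CPM in sham 1 to 3 and 50.2, 51.2 and 44.2 CPM in tMCAO 1 to 3, a log2 fold change of -0.0032 ± 0.19. Mdh2, the malate dehydrogenase of the matrix that closes the cycle, had 153, 174 and 145 CPM in sham 1 to 3 and 162, 198 and 233 CPM in tMCAO 1 to 3, and did not pass (0.21 ± 0.19).

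Of the 8 cytosolic, malate-aspartate and refilling enzymes, 6 were tested, and 2 rose (Got1 and Idh1), 2 fell (Mdh1 and Glud1) and 2 did not pass. This is 66.7% of the tested genes of this group, beside 18.1% of all tested genes. DESeq2 called 1 of the 6 and 12.9% of all tested genes, and limma voom 2 of the 6 and 14.8% of all tested genes.

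Mdh1, the cytosolic malate dehydrogenase (ENSMUSG00000020321), had 224, 298 and 184 CPM in sham libraries 1 to 3 and 132, 119 and 169 CPM in tMCAO libraries 1 to 3. Sham 2 was the highest, and the lowest sham library lay just above the highest tMCAO library. The mean went from 235 ± 58.1 to 140 ± 26.0 CPM (SD, n = 3 each), and the gene fell by 0.87 ± 0.23 on the log2 scale (adjusted p = 0.0218 in edgeR's quasi-likelihood test). That call was lost without sham 1 (-0.93, adjusted p = 0.0537), sham 2 (-0.62, 0.0746), tMCAO 1 (-0.78, 0.0760) or tMCAO 2 (-0.72, 0.0986), and over all alternatives the adjusted p ran from 8.5e-05 to 0.0986.

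Markers of several other cell types were highest in the same sham library as Mdh1. Summed over 8 markers each, astrocyte levels in sham 1 to 3 were 277, 419 and 139 CPM, and choroid plexus levels 13954, 44605 and 8624 CPM. The oligodendrocyte levels were 418, 1040 and 187 CPM. The 7 erythroid markers in the table summed to 2865, 6041 and 955 CPM, and the mitochondrial genome held 2.33, 3.35 and 1.79% of counts. In tMCAO 1 to 3, the astrocyte sums were 64.5, 92.2 and 74.6 CPM, the choroid plexus sums 2274, 4035 and 9961 CPM, the oligodendrocyte sums 152, 344 and 146 CPM, the erythroid sums 301, 215 and 380 CPM and the mitochondrial shares 0.89, 0.83 and 1.04%. All these sums were higher in sham 2 than in sham 1 or sham 3, as was the level of Mdh1. This was not particular to Mdh1. The summed level of all members was 2131, 2470 and 1924 CPM in sham 1 to 3. Acadm, Glud1, Got1 and Idh1 were also highest in sham 2 among the sham libraries, while Ogdh and Cpt1a were not. EdgeR's test called 2 of the 4 tested astrocyte markers, 1 of 7 choroid plexus markers, 1 of 7 oligodendrocyte markers and 0 of 3 erythroid markers lower. The neutrophil markers followed another order, at 1781, 1779 and 2270 CPM in sham 1 to 3 and 1797, 400 and 942 CPM in tMCAO 1 to 3, with 1 of 8 called lower. Endothelial sums, highest in sham 2 among sham libraries, were 183, 260 and 178 CPM. In tMCAO 1 to 3 they were 118, 308 and 220 CPM, with 0 of 6 tested markers called. Neuron sums were 18.1, 17.8 and 13.4 CPM in sham and 10.3, 8.62 and 4.26 CPM in tMCAO. T and NK cell sums were 7.17, 9.51 and 9.94 CPM in sham and 6.895, 7.545 and 2.13 CPM in tMCAO. In the neuron and T and NK cell lists 0 markers were tested. None of these markers was at 0 in all 6 libraries, and their part in the result was not tested.

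Glud1, the glutamate dehydrogenase that passes glutamate carbon into the cycle as 2-oxoglutarate (ENSMUSG00000021794), had 40, 47 and 35 counts in sham 1 to 3 and 16, 14 and 21 counts in tMCAO 1 to 3. In CPM these were 16.9, 18.6 and 13.4 against 7.88, 7.55 and 11.2, with no overlap. It fell by 0.99 ± 0.31 on the log2 scale (adjusted p = 0.0412 in edgeR's quasi-likelihood test). The call was lost without sham 1 (adjusted p = 0.110), sham 2 (0.118), tMCAO 1 (0.119) or tMCAO 2 (0.141), without both sham 1 and tMCAO 3 (0.0564), with library totals as the only scaling (0.0619), with DESeq2 (0.117) and with limma voom (0.0509). Over the alternatives the log2 fold change of Glud1 stayed between -1.23 and -0.85.

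Got1, the cytosolic aspartate aminotransferase of the malate-aspartate shuttle (ENSMUSG00000025190), had 25.7, 28.1 and 25.2 CPM in sham 1 to 3 and 42.8, 50.1 and 47.9 CPM in tMCAO 1 to 3. The spread within each group was small, at 26.4 ± 1.55 and 47.0 ± 3.73 CPM (SD, n = 3 each), and the groups were well apart. It rose by 0.71 ± 0.20 on the log2 scale, or 1.64-fold (adjusted p = 0.0245 in edgeR's quasi-likelihood test), and lost the call without sham 1 (0.67, adjusted p = 0.106), sham 3 (0.65, 0.0956) or tMCAO 2 (0.71, 0.0678), without both sham 1 and tMCAO 3 (0.61, 0.117), and with DESeq2 (0.72, 0.0722). Its matrix counterpart Got2 had 30.8, 32.9 and 24.1 CPM in sham 1 to 3 and 42.4, 37.2 and 36.7 CPM in tMCAO 1 to 3, with no overlap in CPM, and did not pass (0.28 ± 0.21, adjusted p = 0.383 in edgeR's test).

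Idh1, the NADP-linked isocitrate dehydrogenase of cytosol and peroxisomes (ENSMUSG00000025950), had 40.5, 42.0 and 33.3 CPM in sham 1 to 3 and 54.2, 64.1 and 84.7 CPM in tMCAO 1 to 3. The highest value was in tMCAO 3, and the groups did not overlap. It rose by 0.70 ± 0.22 on the log2 scale, or 1.62-fold, with an adjusted p of 0.0463 in edgeR's quasi-likelihood test, close to the threshold. The call of Idh1 was lost under 10 of 15 alternatives, with adjusted p of 0.129, 0.0580 and 0.169 without sham 1, 2 and 3, and 0.0716 and 0.123 without tMCAO 2 and 3 (0.48 on the log2 scale without tMCAO 3, and 0.46 with adjusted p = 0.224 without both sham 1 and tMCAO 3). With DESeq2, limma voom and upper-quartile scaling the adjusted p of Idh1 was 0.0819, 0.0735 and 0.0681.

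Of the remaining refilling enzymes, pyruvate carboxylase (Pcx), which makes oxaloacetate from pyruvate, had 4, 9 and 2 counts in sham 1 to 3 and 2, 6 and 4 in tMCAO 1 to 3. Me1, the cytosolic malic enzyme that yields NADPH, had 2, 9 and 1 counts in sham 1 to 3 and 0, 1 and 1 in tMCAO 1 to 3. Both were under the filter on low counts. With no filter neither was called by edgeR's test, at -2.1 (adjusted p = 0.238) for Me1 and 0.0022 (adjusted p = 0.999) for Pcx.

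**Figure D2:**
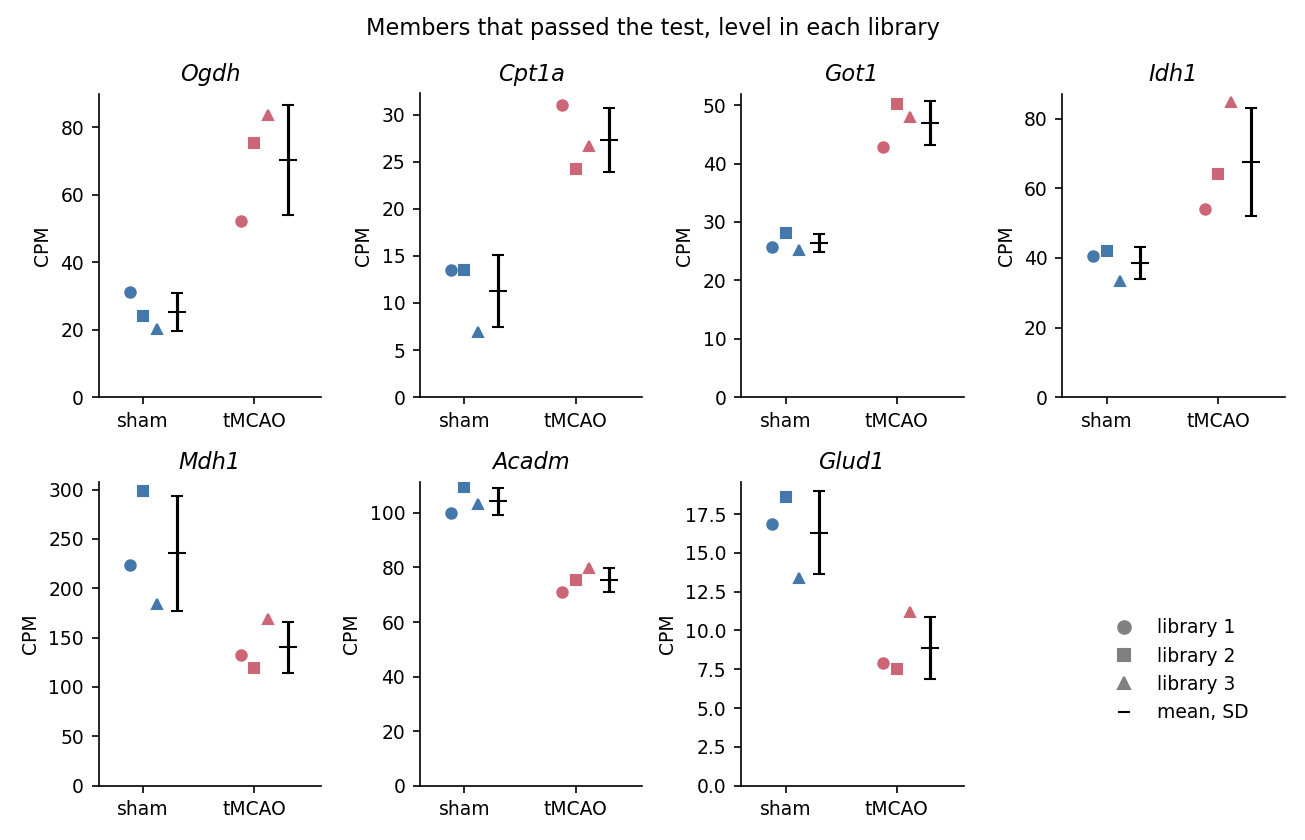
CPM (y axis, from 0) of the 7 called members in each sham and tMCAO library, with symbols for library 1, 2 and 3 and bars for the mean and SD of 3 libraries. Ogdh, Cpt1a, Got1 and Idh1 lie higher in all 3 tMCAO libraries than in any sham library, and Mdh1, Acadm and Glud1 lie lower.

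The carnitine shuttle, which carries long-chain fatty acids into the matrix, had values above 0 for all 3 members, and Cpt1a passed. Cpt1a encodes the outer-membrane palmitoyltransferase that limits the rate of entry (ENSMUSG00000024900). Its counts were 32, 34 and 18 in sham 1 to 3 and 63, 45 and 50 in tMCAO 1 to 3, or 13.5, 13.5 and 6.88 CPM against 31.0, 24.3 and 26.6 CPM. The lowest library was sham 3, and no tMCAO library reached down to the sham range. Cpt1a rose by 1.15 ± 0.29 on the log2 scale, or 2.22-fold (adjusted p = 0.0164 in edgeR's quasi-likelihood test). Among 15 alternatives the call was lost without sham 3 (0.87, adjusted p = 0.0665), and the adjusted p was otherwise under 0.05, down to 0.000521.

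Cpt2, the inner-membrane partner that returns acyl groups to CoA, had 8.43, 9.91 and 8.03 CPM in sham 1 to 3 and 14.3, 13.5 and 16.5 CPM in tMCAO 1 to 3. Slc25a20, the carrier that swaps acylcarnitine for carnitine, had 19.0, 19.4 and 16.4 CPM in sham 1 to 3 and 29.1, 21.0 and 36.2 CPM in tMCAO 1 to 3. The groups did not overlap for either gene. Neither passed edgeR's quasi-likelihood test, at 0.63 ± 0.29 (adjusted p = 0.156) for Cpt2 and 0.54 ± 0.26 (adjusted p = 0.170) for Slc25a20, nor did they pass under any of 15 alternatives.

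Beside the 4 genes that rose, the monocyte and border-associated macrophage markers were higher after tMCAO. The 8 border-associated macrophage markers summed to 227, 186 and 236 CPM in sham 1 to 3 and 472, 404 and 548 CPM in tMCAO 1 to 3, with 5 of 8 tested markers called higher. The 8 monocyte markers summed to 110, 107 and 92.6 CPM in sham 1 to 3 and 346, 194 and 164 CPM in tMCAO 1 to 3, with 4 of 7 tested markers called higher. No marker of either list was at 0 in all libraries, F13a1 stands in both lists, and their part in the rises was not tested.

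The acyl-CoA dehydrogenases take the first step of the spiral, each on acyl chains of its own length range. Acadm, the medium-chain enzyme (ENSMUSG00000062908), was the 1 member of this group of 4 that changed. It had 99.9, 109 and 103 CPM in sham 1 to 3 and 70.9, 75.5 and 79.9 CPM in tMCAO 1 to 3. Both groups were tight, with SDs of 4.80 and 4.48 CPM (n = 3 each), and far from overlapping. Acadm fell by 0.58 ± 0.17 on the log2 scale, to 0.67 of the sham level (adjusted p = 0.0276 in edgeR's quasi-likelihood test). With 1 library fewer, its call was lost without sham 1 (adjusted p = 0.0706), sham 2 (0.0945), sham 3 (0.0639), tMCAO 1 (0.114) or tMCAO 2 (0.0873). It was also lost with DESeq2 (0.0675) and with a minimum of 1 CPM (0.0503), while the log2 fold change stayed between -0.72 and -0.47 over all alternatives. Acadvl, the very-long-chain enzyme (0.05 ± 0.19), and Acads, the short-chain enzyme (-0.07 ± 0.23), did not pass.

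No gene of the later steps of the spiral passed the test. Of the 6 genes of hydratase, hydroxyacyl-CoA dehydrogenase and thiolase, 0 were called by edgeR's quasi-likelihood test, 0 reached an unadjusted p under 0.05, and 0 were called by DESeq2 or limma voom. Echs1, the short-chain enoyl-CoA hydratase, had 108, 95.1 and 91.8 CPM in sham 1 to 3 and 114, 135 and 151 CPM in tMCAO 1 to 3, without overlap in CPM, and did not pass (0.32 ± 0.18, adjusted p = 0.225 in edgeR's test). Hadh, the short-chain hydroxyacyl-CoA dehydrogenase, was at -0.09 ± 0.20. Acaa2, the thiolase of the matrix, had 70.4, 118 and 65.4 CPM in sham 1 to 3 and 54.7, 66.8 and 83.1 CPM in tMCAO 1 to 3. Sham 2 stood highest for Acaa2 as it did for Mdh1, and its log2 fold change of -0.43 ± 0.28 (adjusted p = 0.317 in edgeR's test) became -0.08 without that library.

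Hadha and Hadhb encode the alpha and beta subunits of the mitochondrial trifunctional protein, which carries out the later steps of the spiral on long chains. Hadha had 142, 163 and 132 CPM in sham 1 to 3 and 151, 153 and 170 CPM in tMCAO 1 to 3 (0.0014 ± 0.17), and Hadhb had 78.0, 86.0 and 68.8 CPM in sham 1 to 3 and 79.8, 70.1 and 83.6 CPM in tMCAO 1 to 3 (-0.11 ± 0.18). Neither passed the test, and the log2 ratio of Hadha to Hadhb counts lay between 0.86 and 1.12 in all 6 libraries. The 2 genes lie head to head in the RefSeq table of GRCm38.p6, and their promoter windows of 300 bases share 228 bases. The stretch between their annotated starts is shown because it belongs to the pair of subunits whose ratio had the narrowest range over the 6 libraries among the 9 ratios compared. It is 272 bases long, at chr5:30154981-30155252 on the plus strand, with Hadha reading away to the left and Hadhb to the right. Its G and C share is 60.3%, and its 18 CG pairs are in capitals.
Hadha-Hadhb: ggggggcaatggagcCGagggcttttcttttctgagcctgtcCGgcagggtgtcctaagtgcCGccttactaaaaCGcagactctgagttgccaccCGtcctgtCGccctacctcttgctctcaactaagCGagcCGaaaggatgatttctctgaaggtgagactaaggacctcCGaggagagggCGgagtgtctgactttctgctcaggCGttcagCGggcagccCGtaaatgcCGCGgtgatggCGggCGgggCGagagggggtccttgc

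Electrons from the acyl-CoA dehydrogenases pass to the electron transfer flavoprotein (Etfa and Etfb) and from there, through Etfdh, to ubiquinone. EdgeR's quasi-likelihood test called 0 of these 3 genes, 0 reached an unadjusted p under 0.05, and DESeq2 and limma voom called 0. Etfa had 51.0, 52.3 and 50.1 CPM in sham 1 to 3 and 60.1, 58.7 and 78.8 CPM in tMCAO 1 to 3, without overlap in CPM (0.25 ± 0.19). Etfb (-0.28 ± 0.22) and Etfdh (0.13 ± 0.28) overlapped between the groups. Decr1 and Eci1, which prepare unsaturated fatty acids for the spiral, were at -0.19 ± 0.21 and 0.13 ± 0.31. By edgeR's test 0 of these 2 were called, with 0 at an unadjusted p under 0.05 and 0 by DESeq2 or limma voom.

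Ratios of counts within a library do not depend on how libraries are scaled, and they set side by side enzymes that share a reaction or a complex. In all, 9 ratios were compared between the groups, 5 from a fixed list and 4 (Ogdh to Dlst, Cpt1a to Cpt2, Suclg1 to Suclg2 and Hadha to Hadhb) chosen after the values were seen. The two-sided exact permutation test over 3 against 3 libraries cannot give a p below 0.1, so no ratio could pass a threshold of 0.05.

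The log2 ratio of cytosolic Mdh1 to matrix Mdh2 was 0.55, 0.77 and 0.34 in sham 1 to 3 and -0.29, -0.73 and -0.46 in tMCAO 1 to 3. It was thus higher in each sham library than in any tMCAO library, a difference of -1.05 (exact permutation p = 0.1, 0.3 adjusted over 9 ratios). Since the share of transcripts that ends up as reads may differ between genes, a log2 ratio of 0 does not mark equal levels of the genes. The log2 ratio of Ogdh to Dlst was -0.61, -0.69 and -0.73 in sham and 0.33, 0.73 and 0.90 in tMCAO, a difference of 1.33 with no overlap (exact permutation p = 0.1, 0.3 adjusted). For Cpt1a to Cpt2 it was 0.66, 0.44 and -0.22 in sham and 1.11, 0.84 and 0.68 in tMCAO, with the nearest libraries almost touching (difference 0.58, exact permutation p = 0.1, 0.3 adjusted).

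The remaining ratios overlapped between the groups. Got1 to Got2 differed by 0.41 and Suclg1 to Suclg2 by -0.59 (exact permutation p = 0.2 each, 0.3 adjusted). Sucla2 to Suclg2 differed by -0.08 (exact permutation p = 0.9, 0.9 adjusted) and Hadha to Hadhb by 0.12 (exact permutation p = 0.3, 0.386 adjusted). For Me1 to Me2 the difference was -2.08 (exact permutation p = 0.2, 0.3 adjusted), but Me1 had at most 9 counts in a library. Idh1 to Idh2 differed by 1.19 (exact permutation p = 0.4, 0.45 adjusted), and its value of 3.79 in tMCAO 3 stood far above 0.42 and 1.01 in tMCAO 1 and 2.

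**Figure D3:**
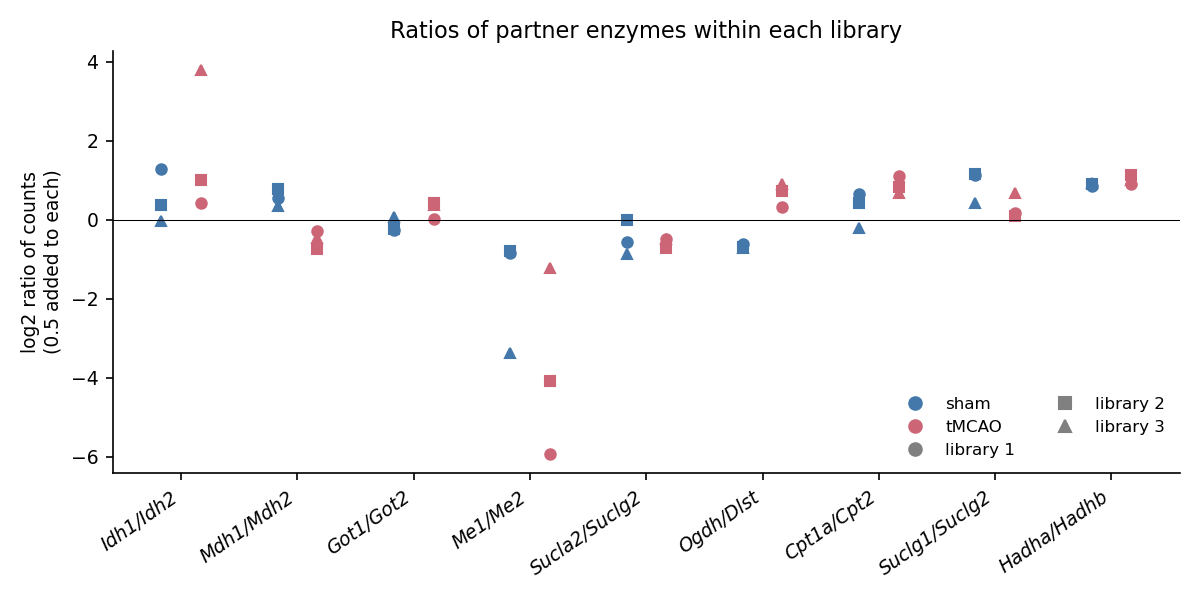
Log2 ratio of the counts of 2 partner enzymes in each library, with 0.5 added to each count (y axis), for 9 pairs (x axis). Colours mark sham and tMCAO and symbols the library number. Mdh1 to Mdh2, Ogdh to Dlst and Cpt1a to Cpt2 do not overlap between the groups, while Hadha to Hadhb stays between 0.86 and 1.12.

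A set of 4 members was far lower in tMCAO 3 than in the other tMCAO libraries, and these were picked out after their values were seen. Idh2, the NADP-linked isocitrate dehydrogenase of the matrix, had 40.4, 31.8 and 5.86 CPM in tMCAO 1 to 3 and 16.4, 32.1 and 34.0 CPM in sham 1 to 3. Acadl, the long-chain acyl-CoA dehydrogenase, had 45.3, 35.6 and 3.20 CPM in tMCAO 1 to 3 and 7.59, 26.2 and 13.004 CPM in sham 1 to 3. Acaa1a, the peroxisomal thiolase, had 57.1, 51.2 and 9.59 CPM in tMCAO 1 to 3 and 12.2, 27.7 and 20.3 CPM in sham 1 to 3. In each of these genes tMCAO 3 was the lowest of the 6 libraries and sham 1 the lowest sham library. Me2, the NAD-linked malic enzyme of the matrix, followed the same order in fewer reads, with 30, 25 and 3 counts in tMCAO 1 to 3 and 4, 16 and 15 counts in sham 1 to 3.

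As measured over all 6 libraries, none of these 4 passed edgeR's quasi-likelihood test, with log2 fold changes of -0.22 ± 0.64 for Idh2, 0.69 ± 0.94 for Acadl, 0.82 ± 0.66 for Acaa1a and 0.96 ± 0.70 for Me2. Their SEs were the largest of the tested members. Without tMCAO 3, Acaa1a (1.28, adjusted p = 0.0165) and Me2 (1.46, adjusted p = 0.0432) passed as higher after tMCAO, Acadl did not (1.22, adjusted p = 0.129) and Idh2 turned to 0.25 (adjusted p = 0.616). In that comparison 9.45% of all tested genes were called higher. Because these 4 genes were picked for their low values in tMCAO 3, leaving it out was bound to raise their log2 fold changes. The calls without tMCAO 3 are therefore no separate evidence of a rise. Without both tMCAO 3 and sham 1, Acaa1a passed (0.99, adjusted p = 0.0299) and Me2 did not (1.04, adjusted p = 0.105). Reads of Acaa1a could be shared with its near-identical neighbour Acaa1b, which had 1 count in the whole table.

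Low values in tMCAO 3 were also found outside these pathways. Of 8346 tested genes with a mean of at least 10 CPM after TMM scaling, 524 (6.28%) were in tMCAO 3 at less than 1/2 of the lower of the other tMCAO libraries, as were 3 of 35 such members (Idh2, Acadl and Acaa1a). In the other 5 libraries the same rule took 0.467 to 2.25% of genes, with sham 1 at the upper end, where it took Idh2. Among 53 pathway partners it took Slc25a11, Oxct1, Tomm20, Timm50 and Hspa9 in tMCAO 3, and Mpc2, Slc25a11, Oxct1 and Timm50 in sham 1. So 3 partners were low in both libraries.

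**Figure D4:**
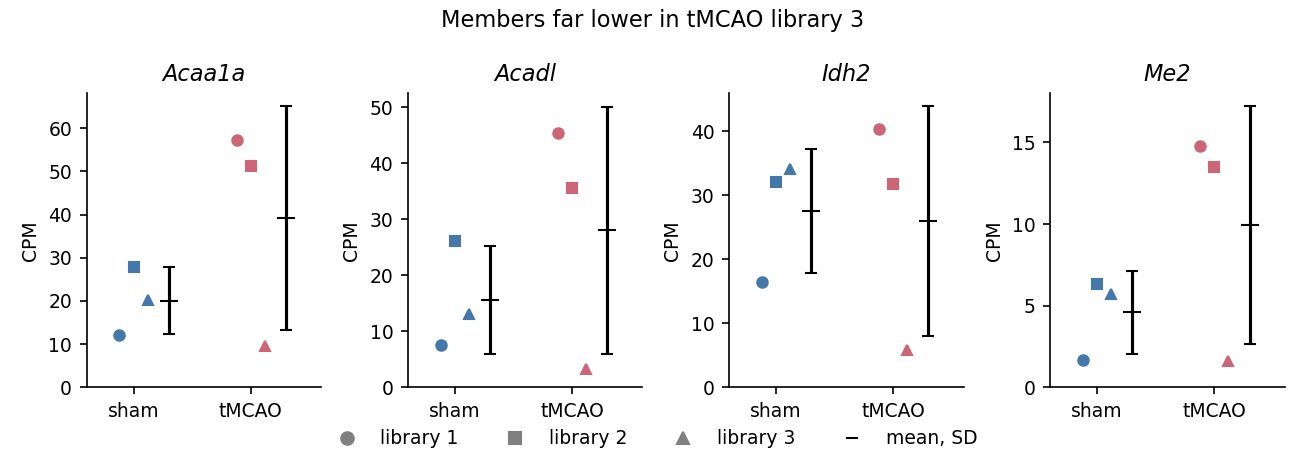
CPM (y axis, from 0) of Acaa1a, Acadl, Idh2 and Me2 in each sham and tMCAO library, with symbols for library 1, 2 and 3 and bars for the mean and SD of 3 libraries. The triangle of tMCAO 3 lies near 0 in each panel, at 9.59, 3.20, 5.86 and 1.598 CPM, while tMCAO 1 and 2 lie close together.

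Promoter windows of RefSeq (GRCm38.p6, 250 bases before and 50 after each annotated start) were at hand for 34 of the 38 members, in 42 windows. The motifs searched, on both strands, were TNAAGGTCA (ERR, the estrogen-related receptors), GCGCATGC (the core of the NRF1 site), TGACGTCA (CRE), CACGTG (E-box) and AGGTCA, the nuclear receptor half-site, which lies within the ERR motif. The NRF1 core was in 5 of 34 members (14.7%), against 3.05% of all 27025 genes with RefSeq windows. By windows the shares were 14.3% of 42 and 2.71% of 32851. The half-site was in 32.4% of members and 18.1% of all genes, CRE in 5.88% and 2.03%, the E-box in 5.88% and 8.09%, and the ERR motif in 0 of 34 members and 1.43% of all genes. The genes compared with include many with too few counts to be tested, and they were not matched to the members in level or base composition. These are matches of letters and not sites known to be bound.

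The members whose windows held the NRF1 core did not share a direction. Ogdh rose, Acadm and Glud1 fell, and Etfa and Etfdh did not pass. Their matches are shown, 30 bases each, since a match to the core, on either strand, stands before genes that changed in opposite directions. Sequences read 5′ to 3′ on the strand of the gene, with the core in capitals, and the reverse complement of the core also counts as a match. As shown, Ogdh, Etfa and Etfdh hold the core itself, and Acadm and Glud1 hold its reverse complement. They lie at chr11:6292532-6292561 (plus strand, Ogdh), chr3:153944783-153944812 (minus strand, Acadm), chr14:34310584-34310613 (plus strand, Glud1), chr9:55512330-55512359 (minus strand, Etfa) and chr3:79628877-79628906 (minus strand, Etfdh). In Etfdh a second match overlaps the one shown. The core begins 15 bases before 1 of the annotated starts of Ogdh, and 158, 132, 105 and 128 bases before the start of Acadm, Glud1, Etfa and Etfdh.
Ogdh: ctaggtgttgtGCGCATGCgtaactcaact
Acadm: gggagcaggacGCATGCGCagagggccttc
Glud1: cccgcccgcgaGCATGCGCaccaagcccat
Etfa: gagggcgtggcGCGCATGCcagcgtctcgg
Etfdh: atgcttctaggGCGCATGCgcacacgcgag

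Other genes of the pathways were taken from a second fixed list of 86 genes, of which 67 could be tested. EdgeR's quasi-likelihood test called 3 of these higher and 1 lower (5.97%), against 18.1% of all tested genes, and their median log2 fold change was -0.08. The 8 remaining TCA and succinate dehydrogenase genes had 0 calls, with 1 at an unadjusted p under 0.05 and 0 by DESeq2 or limma voom. That gene was Sdhc, a membrane anchor of succinate dehydrogenase (-0.56, adjusted p = 0.0754 in edgeR's test). Pyruvate entry (9 tested) and the other mitochondrial fatty acid oxidation genes (10 tested) had 0 calls by edgeR's test, DESeq2 or limma voom and 0 at an unadjusted p under 0.05. Peroxisomal oxidation (10 tested) had 0 calls by these tools, with 2 at an unadjusted p under 0.05.

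The 4 partners that changed sit at branch points or in regulation. Ppard, a nuclear receptor that fatty acids activate, had 4.64, 2.77 and 3.44 CPM in sham 1 to 3 and 15.3, 11.3 and 12.2 CPM in tMCAO 1 to 3, a rise of 1.71 ± 0.35 on the log2 scale (adjusted p = 0.00516 in edgeR's test). Pck2, the mitochondrial phosphoenolpyruvate carboxykinase that draws on oxaloacetate, had 25.7, 24.6 and 29.8 CPM in sham 1 to 3 and 58.1, 51.7 and 48.5 CPM in tMCAO 1 to 3 (0.86 ± 0.19, adjusted p = 0.00759 in edgeR's test). Sirt5, which removes succinyl and related groups from mitochondrial enzymes, had 52.3, 51.9 and 55.1 CPM in sham 1 to 3 and 35.5, 29.6 and 27.7 CPM in tMCAO 1 to 3, and fell by 0.90 ± 0.19 on the log2 scale (adjusted p = 0.00543 in edgeR's test). These 3 genes did not overlap between the groups and were called under all 15 alternatives. The groups were tight for Pck2 and Sirt5, while Ppard rested on 11, 7 and 9 counts in sham 1 to 3 and 31, 21 and 23 in tMCAO 1 to 3.

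Acod1, which makes itaconate from the cycle intermediate cis-aconitate, had 7, 5 and 10 counts in sham 1 to 3 and 18, 18 and 51 counts in tMCAO 1 to 3. The highest was tMCAO 3. It rose by 2.26 ± 0.53 on the log2 scale (adjusted p = 0.0130 in edgeR's test), and the call was lost without sham 1 (2.24, adjusted p = 0.0588), sham 2 (2.07, 0.0528) or both sham 1 and tMCAO 3 (1.48, 0.0717), and with limma voom (1.996, 0.0577). The 19 partners that could not be tested reached at most 8.01 CPM in any library. Among them Ppara had 5 counts in the whole table, Cpt1b, the muscle form of Cpt1, had 2 and Acacb, the acetyl-CoA carboxylase that makes the inhibitor of Cpt1, had 0.

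Mitochondrial import and outer membrane genes, given as a gauge of other nuclear-encoded mitochondrial proteins, had 10 of 12 values below 0 and a median of -0.23. Of them 0 were called by edgeR's test, DESeq2 or limma voom, and 1 reached an unadjusted p under 0.05.

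**Figure D5:**
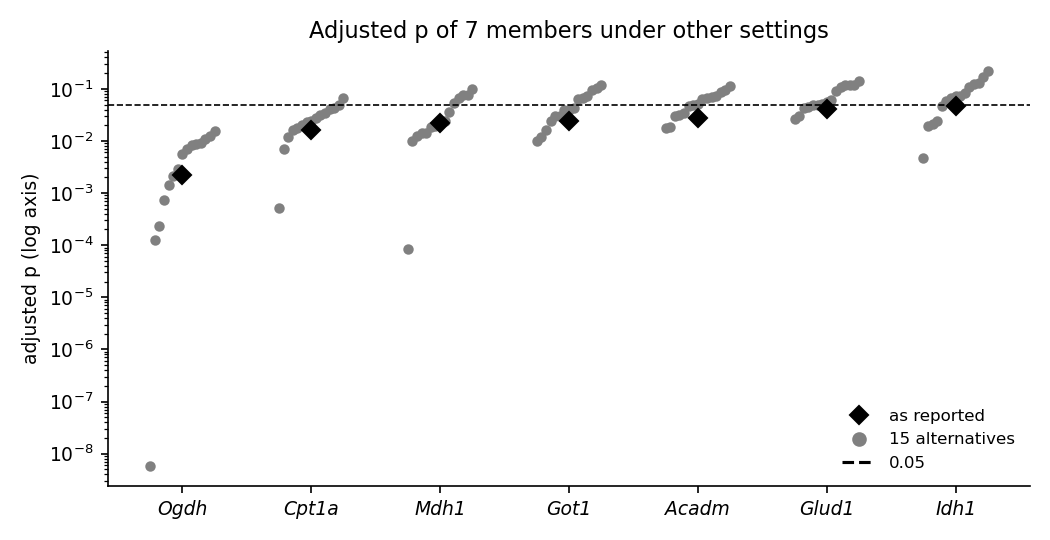
Adjusted p (y axis, log scale) of the 7 called members as reported (diamonds) and under 15 alternative settings (dots), with a dashed line at 0.05. All dots of Ogdh lie below the line (0.0154 at most), 1 of Cpt1a lies above it (0.0665), and for Idh1 10 of 15 do.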

How the data were processed

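Per the file headers, the authors deposited 1 table with unnormalized read counts for each gene in each library, next to CPM that they scaled by library totals (largest difference from CPM recomputed here: 4.87e-06). The submitters' processing notes name minimap2. No version is given with it, and neither build, annotation, counting rule nor strandedness was stated, so reads of overlapping genes could not be told apart. Of 38219 lines, 12 held no values and were left out. No column was without a sample (0). The fit used edgeR 4.0.16 in R 4.3.3: filterByExpr (minimum count 10, minimum total 15), TMM, robust dispersions and the quasi-likelihood F test with group as the only term, with Benjamini-Hochberg adjustment over all 13127 tested genes. The SE is the absolute log2 fold change divided by the square root of F. Alternatives were DESeq2 1.42.0, limma voom (limma 3.58.1), other scalings and filters, a replicate block and libraries left out. Ratios used counts plus 0.5 and scipy 1.17.1. Code was tested on simulated counts.

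The members, gene lists and settings were chosen with earlier results of these data known. Values in every library are given for called members, the 6 uncalled ones with the smallest p, both genes of 5 enzyme pairs, and called pathway partners. Acaa1a, Acadl, further members named with their levels and 4 of the 9 ratios were picked after their values were seen. Counts ranged from 1855495 to 2614512 per library. The reads come from PCR without molecular identifiers, so a count is not 1 independent molecule. How the pools were prepared, together or apart, is not said, and the p-values rest on how far these pools differed among themselves.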

Additional observations from a re-analysis of the deposited data

How the results depend on the processing

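Members called higher and lower numbered 4 and 3 as reported. They numbered 2 and 1 with DESeq2, and 2 and 0 with the replicate block. With 1 library left out, members called higher ranged from 1 to 5 and lower from 0 to 4. Called partners (3 higher, 1 lower) numbered 5 higher with no filter and 5 with a minimum of 1 CPM, and 2 lower with upper-quartile scaling. Without sham 1 and tMCAO 3 there were 3 lower, and with 1 library left out 1 to 5 lower. All genes changed were 2380 as reported, 4039 with no filter, 3681 with a minimum of 1 CPM, 1573 without sham 1 and tMCAO 3, and 1254 to 2590 with 1 library left out. The share of calls that were higher was 50.6%, 63.2% with library totals as the only scaling (median of all genes 0.11) and 42.2% with upper-quartile scaling (-0.07). The members' median, -0.00095 as reported, lay on either side of 0, from -0.0975 without sham 3 to 0.113 with library totals, and moved by less than the SD between libraries (0.15) under all 15 alternatives. The cause of these changes was not tested, apart from fewer libraries or other filters where the setting itself makes them.

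The deviations of same-numbered libraries from their group means had correlations across genes of -0.209, 0.017 and -0.174. For sham and tMCAO libraries of unlike number, the correlations ran from -0.114 (sham 1 with tMCAO 2) to 0.252 (sham 1 with tMCAO 3). With 3 libraries per group, these values cannot tell whether same-numbered libraries were prepared together. Under the replicate block 1662 genes were called, and Got1 (adjusted p = 0.0647), Idh1 (0.108), Mdh1 (0.0670), Acadm (0.0733) and Glud1 (0.0899) lost their calls in edgeR's test.

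Of the 36 tested members, 13 changed sign under at least 1 alternative, none of them called as reported and none farther than 0.224 from 0 as reported. They included Idh2 without tMCAO 3 (0.25), Mdh2 without sham 1 and tMCAO 3 (-0.016), Sucla2 (0.22) without sham 2, and Suclg2, which was at -0.0032 as reported. The Sucla2 to Suclg2 ratio also changed sign without sham 2 (0.16). For Suclg2 the values were 0.11 with library totals, 0.067 with no filter, 0.062 with a minimum of 1 CPM, 0.0050 with limma voom, 0.0052 with the replicate block, and 0.011 to 0.046 without sham 2, sham 3, tMCAO 1 or tMCAO 3. With 1 library left out, the range was -0.66 to 0.25 for Idh2, -0.31 to 0.22 for Sucla2, -0.127 to 0.046 for Suclg2 and -0.27 to 0.16 for the Sucla2 to Suclg2 ratio. With at most 9 counts per library, the levels of Me1 and Pcx are imprecise.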
